A study of Mus musculus with 8 samples.

Results

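F-box proteins are the parts of the SCF ubiquitin ligases that pick the protein to be marked for destruction. Their genes were taken as all rows whose mouse symbol begins with Fbxl, Fbxo or Fbxw and a digit. This gave 70 of the 24988 genes in the table, namely 19 Fbxl, 36 Fbxo and 15 Fbxw genes. The annotation holds 79 such symbols, and the other 9, all Fbxw genes on chromosome 9, were not analysed here. All 70 were annotated as protein coding except Fbxl12os, an antisense gene beside Fbxl12 that the symbol rule also takes in.

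RNA of adult mouse testis was sequenced in 8 libraries, 4 labelled Kpna2 knockout (genotype Kpna2-/-) and 4 labelled wild type (WT), here called the KO-labelled and WT-labelled libraries. Kpna2 encodes an importin alpha, an adaptor for the import of proteins into the nucleus. At issue was how gene expression differs between testes of the 2 genotypes. The labels give neither the strain nor the number of animals, so p-values speak only of the spread among the 8 libraries, which may be technical.

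In an SCF ligase, the F-box motif holds Skp1, which hangs on the scaffold Cul1, while the rest of the F-box protein binds the substrate. The families are named for that second part: leucine-rich repeats in Fbxl, WD40 repeats in Fbxw and other or no known domains in Fbxo. NEDD8, a small relative of ubiquitin, is attached to the cullin to switch the ligase on. In germ cells such ligases take part in the control of meiotic division and in the remodelling of spermatids.

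Levels are in CPM, reads scaled to a common library size, and libraries held 31133443 to 37797812 assigned reads. Kpna2 itself went against the labels. It had 15.3, 20.2, 19.4 and 21.7 CPM in the KO-labelled libraries, against 14.0, 15.1, 14.0 and 12.4 CPM in the WT-labelled ones. Its log2 fold change was 0.44 (SE 0.10, limma adjusted p = 0.0079), and the exact two-sided permutation test gave p = 0.0286, the smallest that 70 assignments allow. Each direction given here is therefore that of the libraries labelled knockout, whichever genotype they hold. Counts per gene do not show which exons were read. All 8 germ cell markers looked at were present, and they summed to 12340 to 16640 CPM in the libraries labelled knockout and 14600 to 15620 CPM in the WT-labelled ones. Of these 8 markers 1 was called lower, beside 8.32% of all genes tested. Of 5 epididymis markers Rnase10 alone was listed, at 4.52 to 6.02 CPM in KO-labelled libraries and 1.75 to 2.15 CPM in WT-labelled ones, and it was called higher.

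F-box genes were called about as often as all genes tested. A gene was called when its limma adjusted p, fitted on log2(CPM + 0.5) and adjusted over all 22027 genes whose mean reached 0.5 CPM, was under 0.05. Of the 66 F-box genes tested, 5 were called higher and 6 lower under the knockout label, 16.7% of them. Of all tested genes 16.9% were called, 8.62% higher and 8.32% lower. The groups did not overlap for 15 of the 66 genes (22.7%, against 20.9% of all genes tested). Of these, 6 lay above and 9 below, where all genes gave 10.1% above and 10.7% below. The median log2 fold change was 0.006 over the F-box genes and -0.01 over all genes. The median size of the log2 fold change was 0.116, against 0.128 over all genes, and it was under 0.2 for 51 of the 66 F-box genes, against 14548 of all 22027. Fbxw15 alone changed by at least 1 log2 unit. Together the 70 genes took 2855 to 3028 CPM in the libraries labelled knockout and 2850 to 2927 CPM in the WT-labelled ones.

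The number of calls fell when any 1 library was left out. It was 9, 8, 7 and 8 without knockout replicate 1, 2, 3 and 4, and 5, 4, 6 and 6 without wild-type replicate 1, 2, 3 and 4, where fewer samples also entered the test. The number called higher was 2, 4, 3 and 4 in the same order for the knockout replicates and 2, 1, 2 and 3 for the wild-type replicates. The number called lower was 7, 4, 4 and 4 for the knockout replicates and 3, 3, 4 and 3 for the wild-type replicates. Fbxw27, Fbxl16, Fbxw15 and Fbxl7 were called in every alternative in which they were tested (19, 19, 18 and 18). The other 7 were lost in 3 to 14 of 19.

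**Figure D1:**
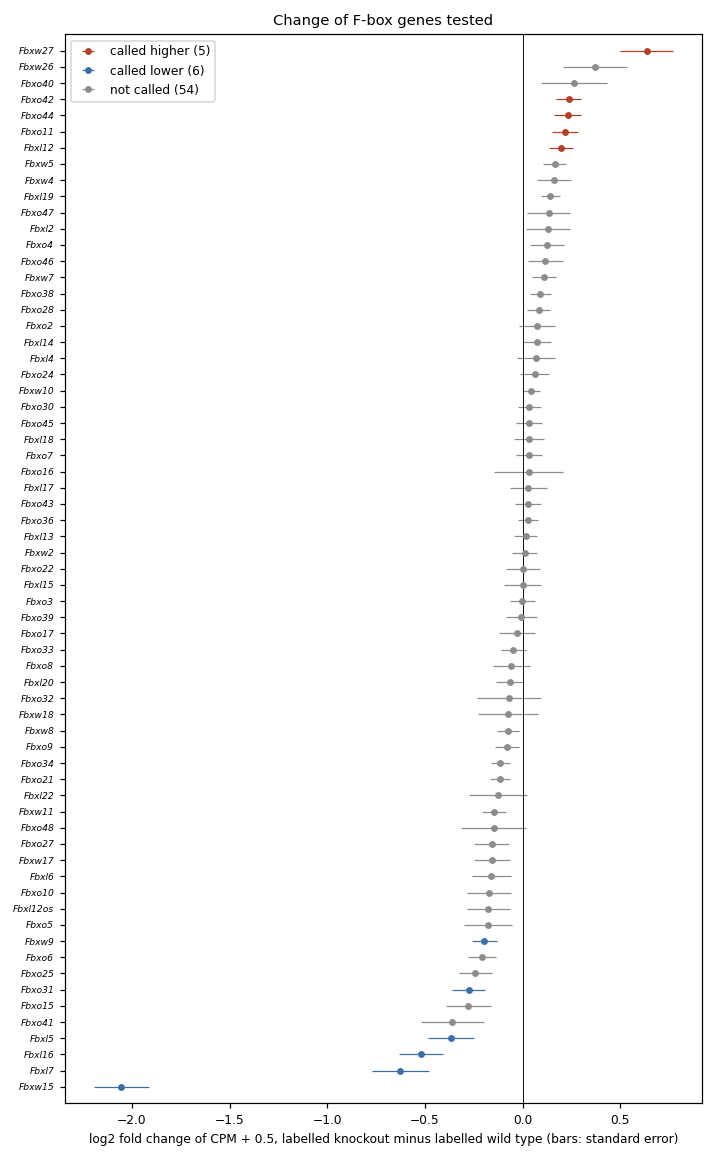
Log2 fold change of CPM + 0.5 (labelled knockout minus labelled wild type) with its standard error for the F-box genes tested and reported here, in order of size and coloured by call. Most genes sit near 0, with Fbxw15 at -2.05 and Fbxw27 at 0.63 at the ends.

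The largest fall and the largest rise among the called genes lay in the WD40 family, in a tandem group of Fbxw genes on chromosome 9. Of that group 6 genes were listed, all on the minus strand: Fbxw13, Fbxw20, Fbxw15, Fbxw18, Fbxw26 and Fbxw27, in that order along chr9:109179227-109790670 (GRCm38). Promoter windows run from 250 bases before to 50 bases after the gene's start. Windows are shown for this group because it holds Fbxw15, the member with the largest change. Fbxw13 and Fbxw27 had no window in the sequences used, and the windows of the other 4 follow. They are RefSeq sequences of GRCm38.p6 on the minus strand, written 5′ to 3′, at chr9:109568213-109568512 for Fbxw15, chr9:109702651-109702950 for Fbxw18, chr9:109234705-109235004 for Fbxw20 and chr9:109746040-109746339 for Fbxw26. Capitals mark the longest run, 27 bases, that all 4 hold without a mismatch.
Fbxw15: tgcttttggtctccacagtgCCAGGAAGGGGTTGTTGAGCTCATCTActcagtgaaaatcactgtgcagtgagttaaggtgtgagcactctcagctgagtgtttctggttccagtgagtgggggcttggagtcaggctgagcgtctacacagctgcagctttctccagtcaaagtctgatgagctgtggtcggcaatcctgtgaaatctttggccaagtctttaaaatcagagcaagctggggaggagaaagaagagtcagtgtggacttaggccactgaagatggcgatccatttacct
Fbxw18: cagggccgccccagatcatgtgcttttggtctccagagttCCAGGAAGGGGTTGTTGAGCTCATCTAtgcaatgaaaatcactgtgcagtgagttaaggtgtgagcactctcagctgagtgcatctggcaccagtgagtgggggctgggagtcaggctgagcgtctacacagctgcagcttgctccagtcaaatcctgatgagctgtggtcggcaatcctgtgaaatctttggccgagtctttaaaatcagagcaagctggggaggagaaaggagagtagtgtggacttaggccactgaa
Fbxw20: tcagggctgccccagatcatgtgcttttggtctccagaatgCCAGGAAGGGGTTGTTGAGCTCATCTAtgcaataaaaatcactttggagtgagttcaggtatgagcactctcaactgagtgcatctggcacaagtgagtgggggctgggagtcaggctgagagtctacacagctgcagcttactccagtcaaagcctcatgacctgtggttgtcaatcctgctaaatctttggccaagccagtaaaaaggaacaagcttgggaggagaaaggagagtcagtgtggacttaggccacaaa
Fbxw26: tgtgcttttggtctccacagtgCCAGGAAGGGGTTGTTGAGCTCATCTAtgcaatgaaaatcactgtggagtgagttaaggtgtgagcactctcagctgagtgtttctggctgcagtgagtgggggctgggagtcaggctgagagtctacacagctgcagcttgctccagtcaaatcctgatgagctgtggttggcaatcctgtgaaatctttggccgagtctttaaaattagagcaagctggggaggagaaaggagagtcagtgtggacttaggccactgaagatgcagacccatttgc
Pairwise identity of these 4 windows, over aligned bases, was 88.1% to 96.5%. Fbxw15 was identical to Fbxw18 at 94.6% of aligned bases, to Fbxw26 at 93.6% and to Fbxw20 at 88.1%. Fbxw25, not analysed here, was closest to Fbxw15 in the group, at 95.3%. Over 66 pairs of windows in the group, with Fbxw23 left out, identity ran from 85.9% to 100%. The highest value was between windows of Fbxw21 itself. Fbxw23, annotated as a pseudogene, was less alike. Its pairs ran from 66.7% to 81.0%, over only 8 to 223 aligned bases.

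Fbxw15 (ENSMUSG00000074060) was nearly absent from the libraries labelled knockout. It had 0.0876, 0.229, 0.0323 and 0.146 CPM there, from 3, 8, 1 and 5 reads, against 2.34, 1.99, 1.90 and 2.07 CPM in the WT-labelled libraries, from 79, 69, 63 and 79 reads. The groups are far apart, with 17 reads in all under the knockout label and 290 under the wild-type label. The means were 0.124 ± 0.0840 CPM in KO-labelled libraries and 2.08 ± 0.191 CPM in the WT-labelled ones (SD, n = 4 each), 16.8-fold lower under the knockout label. The log2 fold change was -2.05 (SE 0.14, limma adjusted p = 3.53e-07). Since the 0.5 CPM added before the logarithm is large beside these values, the log2 fold change was -3.36 with 0.1 CPM, -0.94 with 2 CPM and -4.00 in edgeR on the reads, each called.

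Fbxw27, another gene of the group, went the other way. It had 8.47, 14.96, 12.75 and 12.95 CPM in the KO-labelled libraries, against 7.57, 7.91, 7.52 and 7.31 CPM in the WT-labelled ones. Knockout replicate 1 stood close to the wild-type values and the other 3 well above them, without overlap. The mean was 1.62-fold higher, with a log2 fold change of 0.63 (SE 0.13, limma adjusted p = 0.00498).

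The other 4 genes of the group gave no call. Fbxw18 had 1.46, 1.69, 1.29 and 2.24 CPM in the KO-labelled libraries, against 1.54, 2.08, 1.93 and 1.52 CPM in the WT-labelled ones, with overlapping groups (limma adjusted p = 0.788). Fbxw26 had 0.525, 0.515, 0.936 and 0.989 CPM in KO-labelled libraries, against 0.475, 0.347, 0.423 and 0.5503 CPM in WT-labelled ones, which also overlap (limma adjusted p = 0.146). Fbxw13 and Fbxw20 were below 0.5 CPM on average and were not tested. Fbxw13 had 38 reads over the 4 libraries labelled knockout and 10 over those labelled wild type, and Fbxw20 had 78 and 59 reads. In these 4 genes the groups overlap, unlike in Fbxw15. The differences between copies were not tested.

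**Figure D2:**
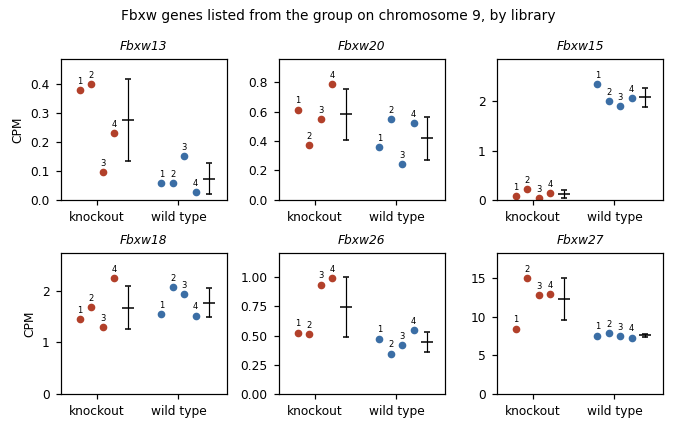
CPM of the 6 listed Fbxw genes of the chromosome 9 group in each library, in genome order. Digits are replicate numbers, and bars beside the points give the mean and SD of 4 libraries. Fbxw15 lies below 0.23 CPM in all 4 libraries labelled knockout, and Fbxw27 above the wild-type values in all 4.

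Exact matches of sequence between these copies and other genes were counted. They do not show how far reads aligned with mismatches could be shared. Of the 50-base windows in annotated Fbxw15 transcripts, 15.98% also occur, on either strand, in a transcript of another gene, and 6.42% of 100-base windows do. Its main partner was Gm42756, with 7.8% of the 50-base windows. That gene is annotated as antisense and overlaps Fbxw15. For Fbxw27 the shares were 8.30% and 2.29%, and for Fbxw18 7.41% of 50-base windows. The highest shares in the group belong to Fbxw14 and Fbxw28, at 58.9% and 61.5% of 50-base windows, which were not analysed here. The sources used here give neither the read length nor the treatment of multiply matching reads, so small values of these genes are uncertain.

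Genes within 500 kb of the called F-box genes were also counted, with F-box genes themselves left out. Around Fbxw15, 5 of 11 tested genes were called (45.5%), and around Fbxw27 7 of 12 (58.3%), beside 16.9% of all genes tested. The windows share genes, and together they hold 17, of which 4 were called higher and 4 lower. Spink8, the gene of a serine protease inhibitor family, fell to 0.555, 0.572, 1.07 and 0.815 CPM in the KO-labelled libraries, against 3.83, 6.33, 4.86 and 4.98 CPM in the WT-labelled ones (limma adjusted p = 1.18e-06). Nme6, a nucleoside diphosphate kinase gene, rose to 62.0, 64.2, 65.95 and 64.8 CPM in KO-labelled libraries, against 52.3, 54.3, 49.4 and 50.7 CPM in WT-labelled ones (limma adjusted p = 0.000769). Of the other called F-box genes, Fbxo11 had 4 of 9 neighbours called (44.4%), Fbxo44 11 of 26 (42.3%), Fbxl5 3 of 13 (23.1%), Fbxo31 3 of 19 (15.8%) and Fbxl16 5 of 41 (12.2%). Fbxw9 had 3 of 38 (7.9%) and Fbxo42 2 of 29 (6.9%). limma called 0 of 23 around Fbxl12 and 0 of 2 around Fbxl7, with 2 each at an unadjusted p under 0.05. On those genes edgeR called 0, and DESeq2 called 0 around Fbxl12 and 1 around Fbxl7. Neighbours were looked at after the called genes were known, and these shares are a description.

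Elsewhere in the WD40 family, Fbxw9 fell slightly. It had 40.3, 43.0, 49.5 and 42.6 CPM in the KO-labelled libraries, against 51.1, 51.7, 48.8 and 49.1 CPM in the WT-labelled ones, and knockout replicate 3 lies inside the wild-type range. The log2 fold change was -0.20 (SE 0.06, limma adjusted p = 0.0495), a call lost in 14 of 19 alternatives, edgeR among them. Its promoter window is shown because it alone, of 51 F-box genes with a window in the RefSeq table, holds the full cAMP response element TGACGTCA, the site of the CREB and CREM factors, of which CREM is known as a regulator of spermatid genes. The window is on the plus strand of GRCm38.p6 at chr8:85059869-85060168, and capitals mark the element.
Fbxw9: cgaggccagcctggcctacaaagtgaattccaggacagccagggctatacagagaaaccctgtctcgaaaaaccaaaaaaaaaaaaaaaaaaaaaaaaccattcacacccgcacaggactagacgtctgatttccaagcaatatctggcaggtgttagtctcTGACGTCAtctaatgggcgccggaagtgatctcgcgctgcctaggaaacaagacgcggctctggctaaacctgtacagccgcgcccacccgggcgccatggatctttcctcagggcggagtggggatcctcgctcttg
Searched on both strands, TGACGTCA stood in 2.03% of 27025 genes with a window, and in 1.96% of the F-box genes. The GC box GGGCGG stood in 68.6% of the F-box genes and 38.2% of all genes, and CCAAT in 31.4% and 41.1%. TATAAA stood in 1.96% and 15.7%. These are matches of letters and not sites of binding. The 27025 genes were taken whether or not they had values here, while the 51 F-box genes all had values. The sets thus differ in more than family, and the gaps were not tested.

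Fbxw5, whose product limits centriole assembly in human cells, was the most abundant F-box gene. It had 422, 375, 449 and 440 CPM in the KO-labelled libraries, against 382, 383, 356 and 381 CPM in the WT-labelled ones. Only knockout replicate 2 lay inside the wild-type range, and the difference missed the threshold (log2 fold change 0.16, SE 0.06, limma adjusted p = 0.0678). It was called without knockout replicate 2 (limma adjusted p = 0.00593) and in DESeq2 (adjusted p = 0.0352). Fbxw10 had 273 to 293 CPM in KO-labelled libraries and 268 to 284 CPM in the WT-labelled ones. Fbxw7, which targets cyclin E, Myc and Notch, had 57.3, 56.7, 54.0 and 60.4 CPM in KO-labelled libraries, against 49.9, 54.2, 58.2 and 49.6 CPM in WT-labelled ones, with overlap (limma adjusted p = 0.258). Fbxw11, which recognises phosphorylated beta-catenin and the NF-kappa-B inhibitor, had 23.3, 21.9, 21.9 and 21.6 CPM in KO-labelled libraries, against 23.9, 23.6, 25.3 and 25.5 CPM in WT-labelled ones, lower without overlap but not called (limma adjusted p = 0.119). Fbxw8, the partner of the scaffold Cul7, had 38.6, 39.4, 41.5 and 35.9 CPM in KO-labelled libraries, against 40.9, 41.8, 40.3 and 40.5 CPM in WT-labelled ones (limma adjusted p = 0.412).

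In the leucine-rich repeat family, 1 of 17 tested genes was called higher and 3 lower (23.5%, beside 16.9% of all genes tested). Fbxl16, whose product binds a protein phosphatase in human cells, had 3.39, 3.35, 4.62 and 3.49 CPM in the KO-labelled libraries, against 5.46, 5.81, 5.28 and 5.45 CPM in the WT-labelled ones. All 4 lay below the wild-type values, a 1.48-fold lower mean (log2 fold change -0.52, SE 0.11, limma adjusted p = 0.00597). Fbxl7, whose product marks the mitotic kinase Aurora A in human cells, had 0.730, 0.887, 0.807 and 0.466 CPM in KO-labelled libraries, against 1.51, 1.47, 1.33 and 1.18 CPM in WT-labelled ones. It was 1.90-fold lower without overlap (log2 fold change -0.63, SE 0.15, limma adjusted p = 0.00886).

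Some markers of somatic cells were also called lower under the knockout label. Over all genes tested, 8.32% were called lower. Of 6 Leydig cell markers 4 were called lower. These 6 summed to 576 to 978 CPM in KO-labelled libraries and 990 to 1182 CPM in the WT-labelled ones. Of 5 peritubular myoid markers 3 were called lower (43.9 to 61.4 CPM KO-labelled, 66.5 to 89.4 CPM WT-labelled), and of 5 endothelial markers 2 (23.5 to 29.2 CPM KO-labelled, 30.3 to 33.9 CPM WT-labelled). Of 6 Sertoli cell markers 2 were called lower (975 to 1145 CPM KO-labelled, 1121 to 1210 CPM WT-labelled). None of 5 macrophage markers was called by limma, edgeR or DESeq2, with 1 at an unadjusted limma p under 0.05 (43.3 to 52.8 CPM KO-labelled, 45.8 to 52.7 CPM WT-labelled), and 1 of 5 red blood cell markers was lower (29.99 to 39.0 CPM KO-labelled, 32.7 to 49.1 CPM WT-labelled). None of these markers was at 0. Their part in the falls of Fbxl7, Fbxl16 and other F-box genes was not tested. In whole tissue, fewer cells of a type and less RNA per cell cannot be told apart.

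Fbxl5, the iron sensor that marks the iron regulatory protein Ireb2 for destruction, split the libraries labelled knockout. It had 69.2 and 66.05 CPM in knockout replicates 2 and 3 but 103 and 97.9 CPM in replicates 1 and 4, against 105, 107, 110 and 103 CPM in the WT-labelled libraries. Knockout replicate 1 reached the lowest wild-type value to within 0.1 CPM (103.4 against 103.5 CPM). The spread within the group was 22.9% of the mean under the knockout label and 2.70% under the wild-type label. The log2 fold change was -0.37 (SE 0.12, limma adjusted p = 0.0484). It was not called without knockout replicate 2 (limma adjusted p = 0.127) or replicate 3 (0.12), without any of the 4 wild-type replicates (0.0801 to 0.107), or in edgeR (adjusted p = 0.0693) and DESeq2 (0.163). Ireb2 itself stood at 122.5 ± 9.21 CPM in KO-labelled libraries and 119.6 ± 4.37 CPM in the WT-labelled ones (limma adjusted p = 0.75).

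Fbxl12 rose to 34.1, 30.3, 30.2 and 29.5 CPM in the KO-labelled libraries, against 26.2, 27.5, 26.9 and 27.4 CPM in the WT-labelled ones, without overlap (log2 fold change 0.20, SE 0.06, limma adjusted p = 0.0427). The call was lost in 9 of 19 alternatives. Of its exon bases, 37.1% overlap exons of Ubl5 on the opposite strand, and no source used here says whether the counting used strand. Ubl5 stood at 63.9, 63.0, 62.5 and 64.1 CPM in KO-labelled libraries, against 58.7, 60.0, 60.3 and 62.7 CPM in WT-labelled ones and was not called. The antisense gene Fbxl12os lay lower without overlap, at 1.81, 1.74, 1.94 and 1.89 CPM in KO-labelled libraries, against 2.14, 2.11, 2.17 and 2.18 CPM in WT-labelled ones, and was not called (limma adjusted p = 0.31).

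Fbxl21 was the least abundant F-box gene per length, with 47 reads over 4 libraries labelled knockout and 75 over 4 labelled wild type, and was not tested. Fbxl19, which binds unmethylated CpG islands, had 88.9, 83.1, 90.2 and 83.3 CPM in KO-labelled libraries, against 75.7, 80.2, 77.2 and 79.8 CPM in WT-labelled ones. It lay above without overlap and missed the threshold (log2 fold change 0.14, SE 0.05, limma adjusted p = 0.0655), and DESeq2 alone of 19 alternatives called it (adjusted p = 0.0378). Fbxl13, a part of the nexin-dynein regulatory complex of the sperm tail, had 154, 142, 136 and 129 CPM in KO-labelled libraries, against 135, 149, 132 and 139 CPM in WT-labelled ones, with groups that overlap throughout (limma adjusted p = 0.881).

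**Figure D3:**
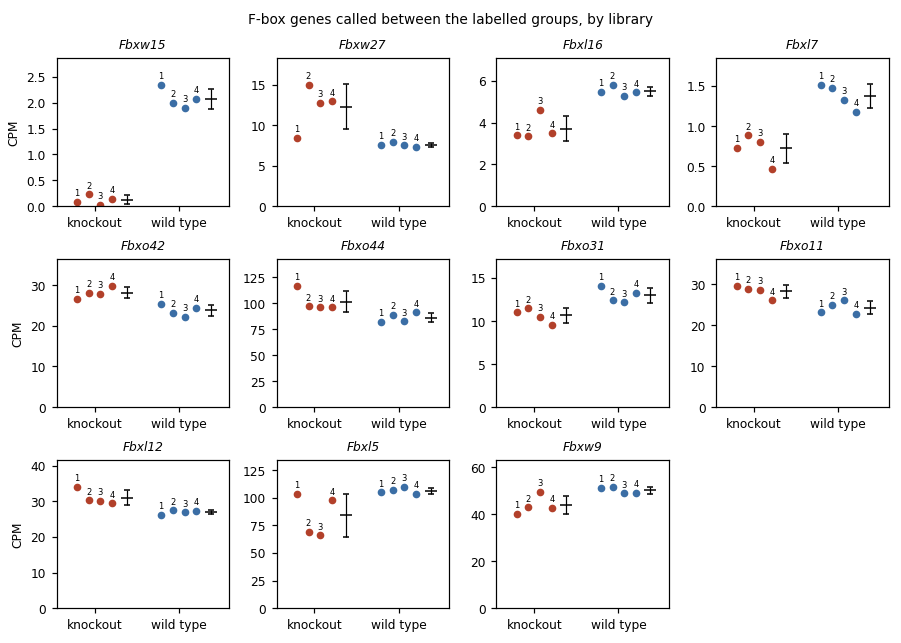
CPM of the 11 called F-box genes in each library, libraries labelled knockout left of those labelled wild type, with axes from 0. Digits are replicate numbers, and bars beside the points give the mean and SD of 4 libraries. Fbxl5 splits the knockout group into 66.05 to 69.2 and 97.9 to 103 CPM, and Fbxo44 and Fbxl12 are highest in knockout replicate 1.

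In the Fbxo family all 36 genes were tested, and 3 were called higher and 1 lower (11.1%, beside 16.9% of all genes tested). Fbxo42, whose product acts on the tumour suppressor Trp53 in human cells, rose to 26.6, 28.2, 27.9 and 29.8 CPM in the KO-labelled libraries, against 25.4, 23.2, 22.2 and 24.4 CPM in the WT-labelled ones. The groups do not overlap, and the mean was 1.18-fold higher (log2 fold change 0.24, SE 0.06, limma adjusted p = 0.0218). The call was lost in 3 of 19 alternatives, without knockout replicate 4 or wild-type replicate 2 or 3 (limma adjusted p = 0.0661, 0.0637 and 0.0667). Fbxo11, which marks the B cell repressor Bcl6, rose to 29.7, 28.9, 28.6 and 26.1 CPM in KO-labelled libraries, against 23.1, 25.0, 26.1 and 22.9 CPM in WT-labelled ones. Knockout replicate 4 met the highest wild-type value (log2 fold change 0.22, SE 0.07, limma adjusted p = 0.0382), and the call was lost in 8 of 19 alternatives. Fbxo31, which marks cyclin D after DNA damage in human cells, fell to 11.0, 11.5, 10.52 and 9.55 CPM in KO-labelled libraries, against 14.1, 12.4, 12.2 and 13.3 CPM in WT-labelled ones. The groups do not overlap (log2 fold change -0.28, SE 0.08, limma adjusted p = 0.036), and the call was lost in 7 of 19 alternatives.

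Fbxo44 stands in a row with Fbxo6 and Fbxo2 on chromosome 4, at chr4:148145716-148166424 (GRCm38). They belong to a subfamily, with Fbxo17 and Fbxo27, some of whose members, such as Fbxo2 and Fbxo6, bind the sugar chains of misfolded glycoproteins. Fbxo44 rose to 117, 96.8, 95.8 and 95.95 CPM in the KO-labelled libraries, against 81.8, 88.8, 82.5 and 91.2 CPM in the WT-labelled ones, 1.18-fold higher without overlap (log2 fold change 0.23, SE 0.07, limma adjusted p = 0.031). Knockout replicate 1 stood apart from the rest of its group, and the call was lost without it (log2 fold change 0.16, limma adjusted p = 0.0595) and in 5 further alternatives. Fbxo6 had 20.5, 18.6, 17.8 and 17.5 CPM in KO-labelled libraries, against 20.4, 22.4, 22.7 and 20.6 CPM in WT-labelled ones, and missed the threshold on the lower side (log2 fold change -0.21, SE 0.07, limma adjusted p = 0.0589). It was called without knockout replicate 1 (limma adjusted p = 0.0253). Fbxo2 had 41.5, 39.4, 44.7 and 47.6 CPM in KO-labelled libraries, against 39.5, 41.2, 35.1 and 49.6 CPM in WT-labelled ones (limma adjusted p = 0.639). Fbxo17 averaged 7.07 ± 0.641 CPM in KO-labelled libraries and 7.21 ± 0.361 CPM in the WT-labelled ones, and Fbxo27 averaged 8.38 ± 0.487 CPM in KO-labelled libraries and 9.43 ± 0.886 CPM in WT-labelled ones. Neither was called. This subfamily was picked out after its values were seen.

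Fbxo genes with known work in germ cells gave no call, where 16.9% of all genes tested were called. Fbxo43, which restrains the anaphase-promoting complex in meiosis, had 29.3, 30.01, 27.3 and 32.7 CPM in the KO-labelled libraries, against 29.8, 29.3, 27.2 and 30.8 CPM in the WT-labelled ones. The groups cover the same range (log2 fold change 0.03, SE 0.07, limma adjusted p = 0.831). Its mitotic relative Fbxo5 was low, at 2.36, 1.97, 1.94 and 2.18 CPM in KO-labelled libraries, against 2.82, 2.48, 2.41 and 2.12 CPM in WT-labelled ones (limma adjusted p = 0.356). Fbxo47, needed for meiotic prophase in mouse spermatocytes, had 12.7, 15.3, 10.1 and 12.7 CPM in KO-labelled libraries, against 10.9, 10.46, 11.6 and 12.9 CPM in WT-labelled ones (limma adjusted p = 0.463). Fbxo24, needed for spermatid remodelling in mice, was among the most abundant, with 198, 159, 162 and 169 CPM in KO-labelled libraries, against 155, 163, 155 and 185 CPM in WT-labelled ones (limma adjusted p = 0.621). Fbxo7, known in mice for spermatid maturation, had 38.0, 34.7, 37.5 and 31.4 CPM in KO-labelled libraries, against 34.4, 36.3, 33.5 and 34.0 CPM in WT-labelled ones (limma adjusted p = 0.799). For these 5 genes each group's range overlaps the other, where 20.9% of all genes tested did not overlap. So few genes cannot be told apart from these shares.

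Of the other Fbxo genes followed by role, Fbxo11, given above, was called higher, and Fbxo15 and Fbxo32 were not called. Fbxo15, a marker of mouse embryonic stem cells, had 13.2, 14.2, 11.1 and 11.8 CPM in the KO-labelled libraries, against 13.4, 14.0, 14.9 and 19.8 CPM in the WT-labelled ones (limma adjusted p = 0.119). Fbxo32, which drives protein loss in wasting muscle, had 1.43, 2.23, 1.61 and 1.48 CPM in KO-labelled libraries, against 2.11, 1.27, 1.66 and 2.20 CPM in WT-labelled ones (limma adjusted p = 0.813). Fbxo25 was lower without overlap, at 6.25, 6.41, 6.20 and 5.88 CPM in KO-labelled libraries, against 7.33, 7.28, 7.43 and 7.57 CPM in WT-labelled ones, but missed the threshold (log2 fold change -0.24, SE 0.08, limma adjusted p = 0.0622). It was called without the variance trend (limma adjusted p = 0.0188).

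Levels per length differed widely among the F-box genes. Per kb of exon, the mean over all 8 libraries ran from 0.0923 CPM for Fbxl21 to 131 CPM for Fbxw5, with a median of 4.30 CPM. After Fbxw5 came Fbxw10 at 69.6, Fbxo24 at 67.0, Fbxo39 at 54.4, Fbxo30 at 48.3 and Fbxo36 at 44.4 CPM per kb. Fbxo2, Fbxo44, Fbxl13 and Fbxo38 followed at 32.9, 31.0, 25.6 and 20.9 CPM per kb. Of these 10, Fbxo44 alone was called, beside 16.9% of all genes tested. Among those not yet given, Fbxo39 stood at 88.8 to 96.0 CPM in KO-labelled libraries and 81.4 to 109.7 CPM in the WT-labelled ones, Fbxo30 at 242 to 273 and 225 to 267 CPM, Fbxo36 at 92.6 to 97.7 and 87.7 to 100.5 CPM, and Fbxo38 at 115 to 128 and 109 to 122 CPM. By mean level, 6 of the 70 genes lay above 100 CPM, 36 between 10 and 100, 23 between 1 and 10 and 5 below 1 CPM. The median was 2.26 CPM per kb for Fbxl, 4.93 for Fbxo and 2.47 for Fbxw genes. The exon lengths come from an annotation of another build than the authors used.

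**Figure D4:**
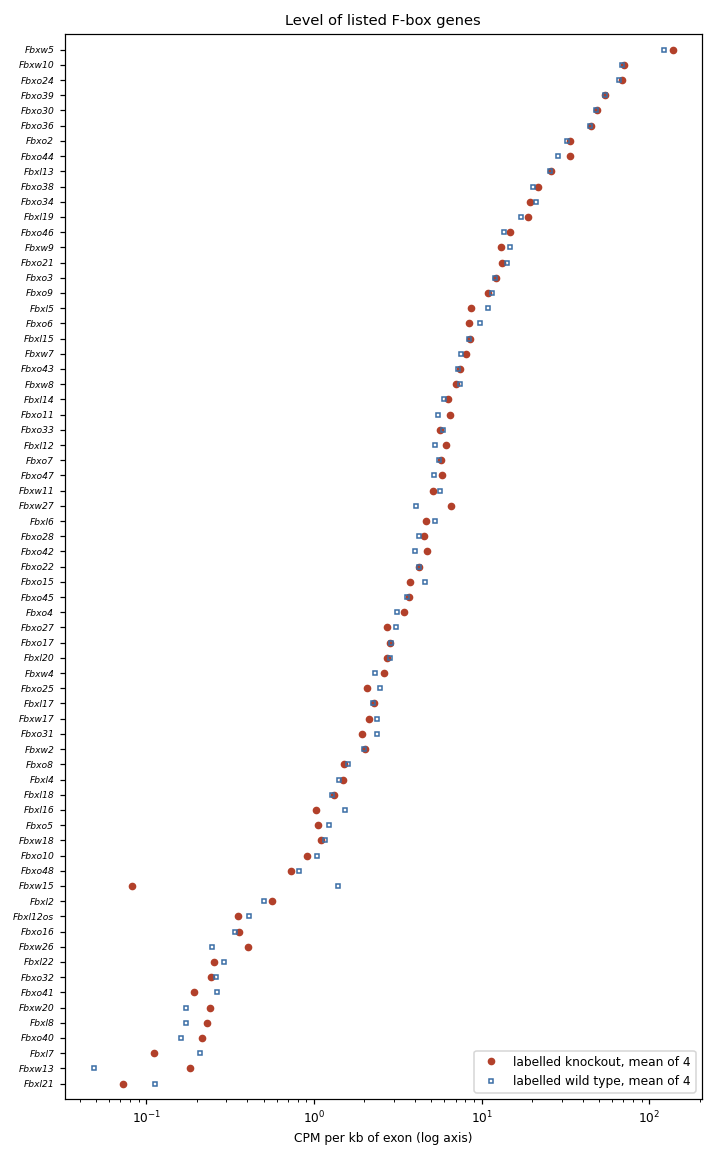
Level of the listed F-box genes reported here as CPM per kb of exon on a log axis, mean of the 4 libraries labelled knockout and of the 4 labelled wild type. Genes run down the page by their mean over all 8 libraries, from 131 CPM per kb (Fbxw5) to 0.0923 (Fbxl21), and the paired marks lie close except for a few genes, Fbxw15 most of all.

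The machinery around the F-box proteins changed in single genes, of which Dcun1d3 and Lmo7 moved farthest. Of 11 cullin ligase core genes, Cul4b was called higher and Cul7 lower, with a median log2 fold change of 0.01. Over all genes tested, 16.9% were called in either direction. Cul4b, a scaffold of another ligase class, had 107, 102, 89.4 and 85.6 CPM in the KO-labelled libraries, against 73.6, 77.3, 80.9 and 74.4 CPM in the WT-labelled ones (limma adjusted p = 0.0055). Cul7 averaged 12.1 ± 1.599 CPM in KO-labelled libraries and 15.2 ± 1.78 CPM in the WT-labelled ones (limma adjusted p = 0.0489), a call lost in 11 of 19 alternatives. The SCF parts Skp1a, Cul1 and Rbx1 averaged 175 ± 5.42, 146 ± 12.1 and 17.6 ± 0.645 CPM in KO-labelled libraries, against 185 ± 11.7, 144 ± 5.33 and 17.2 ± 0.335 CPM in the WT-labelled ones, and none was called.

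Of 10 genes of NEDD8 attachment 3 were called, all higher, with a median log2 fold change of 0.08. Of all genes tested 8.62% were called higher and 8.32% lower. Dcun1d3, of the family that helps load NEDD8 on cullins, rose to 96.4, 93.5, 96.1 and 103 CPM in the KO-labelled libraries, against 51.5, 57.1, 55.2 and 58.5 CPM in the WT-labelled ones. The groups are far apart, with a log2 fold change of 0.80 (SE 0.06, limma adjusted p = 3.46e-07). Its relative Dcun1d1 averaged 167 ± 15.2 CPM in KO-labelled libraries and 145 ± 5.84 CPM in the WT-labelled ones (limma adjusted p = 0.0484). Ube2m, the enzyme that carries NEDD8, averaged 181 ± 12.6 CPM in KO-labelled libraries and 159 ± 5.66 CPM in WT-labelled ones (limma adjusted p = 0.0354). These 2 calls were lost in 11 and 8 of 19 alternatives. Of 13 genes of the COP9 signalosome, which takes NEDD8 off, with the exchange factors of the Cand family and Glmn, limma called 0, as did edgeR and DESeq2, with 1 at an unadjusted limma p under 0.05. Their median log2 fold change was -0.02. Cops7a had the smallest p, at 175 ± 6.29 CPM in KO-labelled libraries and 187 ± 7.09 CPM in the WT-labelled ones (limma adjusted p = 0.165).

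Of 12 ubiquitin-conjugating enzymes and helpers, 3 were called higher and 1 lower (median log2 fold change 0.07). Over all genes tested, 8.62% were called higher and 8.32% lower. Arih1, a ligase that works on cullins carrying NEDD8, averaged 343.5 ± 17.3 CPM in KO-labelled libraries and 297 ± 8.86 CPM in the WT-labelled ones (limma adjusted p = 0.00787). Ube2d2a and Ube2r2 averaged 62.0 ± 3.59 and 44.8 ± 4.29 CPM in KO-labelled libraries, against 52.1 ± 1.18 and 37.5 ± 1.42 CPM in the WT-labelled ones (limma adjusted p = 0.00625 and 0.0237). Cks1b, which helps Skp2 to bind its substrate, fell to 5.74 ± 0.546 CPM in KO-labelled libraries, against 7.42 ± 0.467 CPM in WT-labelled ones (limma adjusted p = 0.0249). Of 7 tested F-box proteins known by other symbols, 1 was called in each direction, with a median log2 fold change of -0.04. Skp2, which marks cell cycle inhibitors, rose to 163, 169, 170 and 181 CPM in the KO-labelled libraries, against 143, 152, 145 and 156 CPM in the WT-labelled ones (limma adjusted p = 0.0154). Lmo7, a junction protein with an F-box, fell to 5.58, 7.49, 6.23 and 4.60 CPM in KO-labelled libraries, against 14.1, 12.5, 10.4 and 12.8 CPM in WT-labelled ones, a log2 fold change of -1.01 (limma adjusted p = 0.000119).

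Of 18 genes of the anaphase-promoting complex, the ligase that Fbxo5 and Fbxo43 hold back, 2 were called, both lower, and the median log2 fold change was -0.01. Anapc5 averaged 96.9 ± 3.94 CPM in KO-labelled libraries and 110 ± 2.10 CPM in the WT-labelled ones, and Cdc16 averaged 24.1 ± 2.35 CPM in KO-labelled libraries and 28.7 ± 0.850 CPM in WT-labelled ones (limma adjusted p = 0.0169 and 0.0261). Of 20 tested genes of textbook SCF substrates, 1 was called higher and 3 lower (median log2 fold change -0.06). Ccne1, cyclin E, rose to 7.62 ± 0.722 CPM in KO-labelled libraries, against 5.70 ± 0.226 CPM in WT-labelled ones (limma adjusted p = 0.012). Cry1 fell to 46.6 ± 4.07 CPM in KO-labelled libraries, against 56.7 ± 2.01 CPM in WT-labelled ones, and Nfkbia, the NF-kappa-B inhibitor, to 10.1 ± 0.285 CPM in KO-labelled libraries, against 13.5 ± 1.43 CPM in WT-labelled ones (limma adjusted p = 0.0068 and 0.00688). These are RNA levels, and the ligases act on protein. Over all genes tested, 16.9% were called.

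**Figure D5:**
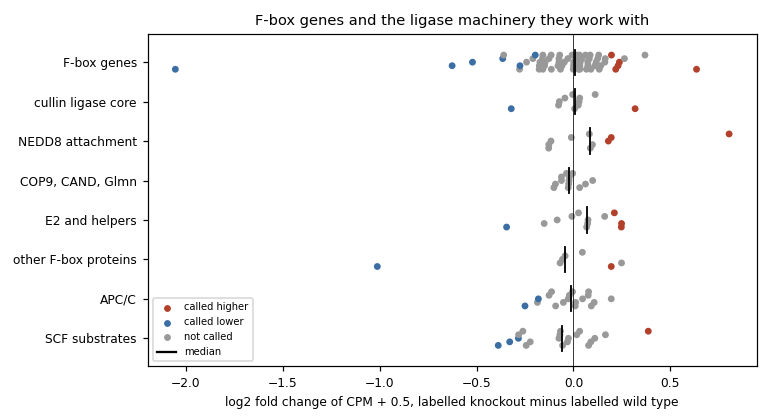
Log2 fold change of CPM + 0.5 (labelled knockout minus labelled wild type) of each tested gene among the F-box genes and 7 lists of ligase machinery and substrates, with a bar at each median. Dcun1d3 at 0.80 and Lmo7 at -1.01 lie farthest out in the 7 lists.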

How the data were processed

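Total RNA of 8 adult testis libraries was sequenced, and the authors deposited 1 matrix of a scaled signal, CPM, for 24988 Ensembl genes. Per the submitters' processing notes, Trimmomatic, Subread and featureCounts were used with GRCm39. Versions, annotation, strand and multiple-match settings are not stated there or in the labels. Columns named kpn and control were matched to the knockout and wild-type titles by number. Every value was a whole multiple, within 0.01, of its column's smallest value above 0 (100% of values), which gave back whole reads. TMM scaling of these reads gave the deposited scaling. A floor of 3 reads corresponds to 0.0786 to 0.0968 CPM, for counting error only.

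Groups were compared with limma 3.58.1 under R 4.3.3 (eBayes with trend, no covariate, Benjamini-Hochberg adjustment over all genes tested). The plan took the table as CPM, and its test was kept for this signal. Alternatives used edgeR 4.0.16, which on these reads called 9 of the 66 F-box genes and 1929 of all genes higher and 1756 lower, and DESeq2 1.42.0, which called 12 of the 66, among 19 settings. Tests were checked on simulated counts. The changes planted there were larger than those of most called F-box genes, and none lay in genes as low as Fbxw15 or Fbxl7. The check therefore does not cover such genes. Chi-square of reads per degree of freedom was 4.60 to 11.6 between replicates. Symbols, exon lengths and coordinates came from GENCODE M21 on GRCm38, another build than the authors', promoters from RefSeq. Symbols were found for 24890 identifiers. F-box genes and lists were chosen with earlier results of these data known. By rule, all called F-box genes, 16 chosen by role, the 10 highest per kb and 3 uncalled ones of smallest p were named, with up to 3 called genes of smallest p per list and the first that went the other way. Other genes named were chosen after their values were seen. An F-box gene that enters all counts is not reported here by name or drawn by name.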

Additional observations from a re-analysis of the deposited data

Results flagged for a closer look

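In groups of 4 libraries, 1 library stood far from the other 3 for 6 of the named F-box genes, among 70 groups looked at. Chance alone gives such a gap in about 1 of 20 groups. Fbxl16 stood at 4.62 CPM in knockout replicate 3, above the rest of its group. Fbxo44 stood at 117 CPM, Fbxw11 at 23.3 CPM and Fbxl21 at 0.613 CPM in knockout replicate 1, each the highest of its group. Fbxo36 stood at 92.6 CPM in knockout replicate 3, the lowest of its group. Fbxw5 stood at 356 CPM in wild-type replicate 3, the lowest of its group.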

How the results depend on the processing

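Kpna2 was called higher in all 19 alternatives. Among F-box genes called higher (5), the count was 2 without the variance trend and 1 to 4 when 1 library was left out, and among those called lower (6) it was 2 with a minimum mean of 2 CPM, which tests 55 of them, and 3 to 7 when 1 library was left out. With the replicate number as a block the counts were 3 and 4, with Fbxo31, Fbxo11, Fbxl12 and Fbxw9 lost and no other F-box call changed. Deviations of libraries with the same number correlated at -0.031 to 0.039, and those with other numbers at -0.059 to 0.068. The labels do not say whether equal numbers mark a shared animal, litter or day, and these correlations cannot settle it. Why calls were lost under the block was not tested. The counts over all genes stayed within 1.5 times in every alternative. The median log2 fold change of the F-box genes lay between -0.011 and 0.026. With 1 library left out, the log2 fold change of some uncalled genes near 0 changed sign, ranging from -0.0284 to 0.0555 for Fbxl13 (-0.0058 between), -0.007 to 0.1204 for Fbxo24, -0.1922 to 0.0109 for Fbxo32, -0.0173 to 0.0675 for Fbxo43 (-0.0075 between), -0.0033 to 0.0869 for Fbxo7, -0.0687 to 0.0738 for Fbxo39 (0.0114 and 0.0231 between), -0.0109 to 0.0698 for Fbxo30 (-0.0002 between), -0.0094 to 0.0559 for Fbxo36 and -0.0003 to 0.1635 for Fbxo2. Fbxl13 also did so with quantile normalization (-0.0082). The cause was not tested. Depth limits Fbxw13, Fbxw20, Fbxl8 and Fbxl21, which had 10 to 78 reads per group and were not tested. Some tested genes were as low in 1 group. Fbxw15 had 17 reads under the knockout label, and Fbxw26 had 63 under the wild-type label.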
